A study of Mus musculus with 7 samples.

Results

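The genes described here are the 4 Id factors, Id1, Id2, Id3 and Id4, and 6 genes of bone morphogenetic protein (BMP) signalling: the ligand gene Bmp4, the receptor genes Bmpr1a, Bmpr1b and Bmpr2, and the inhibitory SMAD genes Smad6 and Smad7. They were chosen by symbol, as the 10 genes of that list among 12393 genes that had a probe set of their own on the array. A probe set is a group of short probes designed to measure 1 or more transcripts. A gene with several probe sets is given by its brightest, with the others beside it. In all, 18 probe sets named 1 of the 10 genes and no other gene.

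The study measured RNA of mouse glioma cells on 7 Affymetrix arrays. The gliomas had been induced on postnatal days 1 to 3 with RCAS-PDGFB-GFP, a vector made from an avian retrovirus that was injected into the brain. It brings in a gene for a platelet-derived growth factor chain and one for a green fluorescent protein, and it infects cells that carry the receptor tv-A, here under the Nestin promoter, which is active in neural progenitors. Cells that were GFP+ and DAPI-, that is, fluorescent and alive, were sorted from tumours taken at symptoms or at 12 weeks. All mice, the controls included, lacked p16 (p16-/-), a cell cycle inhibitor, and were mixed between C57/BL6 and FVB/N. The genotypes compared were those of Ptprd, the gene of a receptor-type tyrosine phosphatase: 2 arrays were Ptprd+/+ (wild type), 2 were Ptprd+/- (heterozygous) and 3 were Ptprd-/- (null). Arrays of a genotype are biological replicates per the labels, which leave unsaid whether an array stands for 1 mouse. P-values therefore measure only how far these samples spread, which may be partly technical.

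BMPs are secreted ligands that bind a pair of type I receptors, such as Bmpr1a and Bmpr1b, and a pair of type II receptors, such as Bmpr2. The receptors phosphorylate SMAD proteins, which enter the nucleus with Smad4 and switch on target genes, among them the Id genes and the inhibitors Smad6 and Smad7, which feed back on the pathway. Id proteins are helix-loop-helix proteins without a DNA-binding region. They bind E proteins and keep them from pairing with tissue-specific bHLH factors, and in the brain they are known for holding back the differentiation of neural progenitors and oligodendrocyte precursors and for their part in astrocyte development under BMP.

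Id2, Id3 and Id4 are shown here by the 250 bases before their RefSeq start in GRCm38.p6, because Id3 and Id4 were called higher in heterozygous arrays and Id2 was not. Capitals mark GGCGCC and GTCTG (read as CAGAC on the other strand), the letters of motifs that SMAD proteins are known to bind. The first region is Id2 at chr12:25096093-25096342 on the minus strand, the second Id3 at chr4:136143572-136143821 on the plus strand and the third Id4 at chr13:48260866-48261115 on the plus strand, each written 5′ to 3′ along the gene.
Id2: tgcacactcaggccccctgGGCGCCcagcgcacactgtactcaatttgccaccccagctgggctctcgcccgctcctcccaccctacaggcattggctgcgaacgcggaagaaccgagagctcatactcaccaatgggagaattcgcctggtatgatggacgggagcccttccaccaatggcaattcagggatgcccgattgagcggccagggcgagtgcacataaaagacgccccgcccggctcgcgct
Id3: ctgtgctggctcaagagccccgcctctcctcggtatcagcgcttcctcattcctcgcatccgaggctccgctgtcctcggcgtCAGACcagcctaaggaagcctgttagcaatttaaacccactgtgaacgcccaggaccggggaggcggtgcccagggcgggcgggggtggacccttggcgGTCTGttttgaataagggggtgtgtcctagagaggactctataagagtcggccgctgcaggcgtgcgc
Id4: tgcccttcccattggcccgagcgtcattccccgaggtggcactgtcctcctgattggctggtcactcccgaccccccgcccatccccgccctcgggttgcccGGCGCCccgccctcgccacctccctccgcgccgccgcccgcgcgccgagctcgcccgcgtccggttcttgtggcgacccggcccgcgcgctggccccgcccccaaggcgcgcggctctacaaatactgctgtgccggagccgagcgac
GGCGCC, which reads the same on both strands, occurred 1 time before Id2, 0 times before Id3 and 1 time before Id4. Of 32851 RefSeq promoters of the same length, 9.59% held it. GTCTG, on either strand, occurred 0 times before Id2, 2 times before Id3 and 0 times before Id4, and 42.2% of the promoters held it. CANNTG, the E box to which bHLH factors bind and which does not overlap the other motifs in these windows, occurred 1 time before Id2 and 0 times before Id3 and Id4 (66.2% of the promoters). GCCGNCGC, a longer GC-rich motif bound by SMAD proteins, occurred 0 times before Id2 and Id3 and 1 time before Id4 (6.89%), away from GGCGCC there. These are matches of letters in the reference, not measured sites. Of the 10 genes, promoters were read for 8, all but Id1 and Smad7. Per RefSeq the Id genes lie on different chromosomes, Id1 at chr2:152736251-152737410, Id2 at chr12:25093799-25096092, Id3 at chr4:136143822-136145392 and Id4 at chr13:48261116-48266028, while Bmp4 (chr14:46383525-46390669) and Bmpr1a (chr14:34411061-34503336) share one.

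Before the results, the state of the arrays is given. The values are log2 expression levels, on which a difference of 1 is a doubling, and they were compared between arrays for 1 probe set at a time. Across probe sets, the heterozygous arrays correlated with each other at 0.992 and with the other 5 at 0.976 to 0.987, while the other 5 correlated among themselves at 0.990 to 0.995. Ptprd lay at 10.86 and 10.89 in wild type, 9.42 and 9.57 in heterozygous and 9.61, 8.95 and 9.93 in null arrays, and whether its probe set lies in the disrupted part is not given in the sources used here. Heterozygous replicate 1 and null replicate 1 carried both Xist, which coats the silent X chromosome, and Y-linked transcripts: Xist lay at 11.16 and 12.73 and Eif2s3y at 9.28 and 8.69. Each of the other 5 arrays was high in 1 of these and low in the other. Calls are therefore also given without both mixed arrays. That fit left 1 heterozygous array and called 0 of 9135 genes in each pair of genotypes by limma (1756, 429 and 1383 had an unadjusted p under 0.05 in heterozygous against wild type, null against wild type and null against heterozygous), so every call below, of markers too, ends in it. Of the 10 genes, 8 were tested, and Bmpr1b and Smad6 were not, because they lay below the 30th percentile on all arrays.

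Id1, Id3 and Id4 were higher in the heterozygous arrays than in any wild-type or null array, by 2.89-fold to 3.90-fold against wild type, whereas Id2 and the BMP ligand, receptor and Smad7 genes showed no call. Null arrays had no called difference from wild type in any of the 8 genes. These 3 Id genes were the ones called lower in null than in heterozygous arrays.

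Id3 is a direct BMP target that is expressed in neural stem cells, astrocytes and vessel walls. Its level was 6.83 and 6.47 in wild type, 8.69 and 8.54 in heterozygous, and 7.17, 6.55 and 6.89 in null arrays. The heterozygous arrays lay well above all others and close to each other, and the wild-type and null arrays overlapped. The mean was 6.65 ± 0.26 (SD, n = 2) in wild type, 8.61 ± 0.10 (SD, n = 2) in heterozygous and 6.87 ± 0.31 (SD, n = 3) in null. Heterozygous exceeded wild type by 1.96 ± 0.22 (SE) on the log2 scale, a 3.90-fold difference with a 95% interval of 1.45 to 2.48 (log2) and an adjusted p of 0.0073 by limma with Benjamini-Hochberg adjustment over the 9243 genes tested. By p it ranked 49 among those genes, and by size it was the 73rd largest rise.

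Id4, a member of the family that is expressed in neural progenitors, lay at 7.89 and 7.63 in wild type, 9.31 and 9.44 in heterozygous, and 8.52, 7.69 and 7.36 in null arrays. The heterozygous arrays did not overlap the rest, and null replicate 1 stood between them and the other 4 arrays. The means were 7.76 ± 0.19 (SD, n = 2), 9.38 ± 0.09 (SD, n = 2) and 7.85 ± 0.60 (SD, n = 3). The difference of heterozygous from wild type was 1.62 ± 0.34 (SE) on the log2 scale, or 3.07-fold, with an interval of 0.81 to 2.42 and an adjusted p of 0.0326.

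Id1, like Id3 a direct BMP target, lay at 5.96 and 5.72 in wild type, 7.64 and 7.09 in heterozygous, and 6.42, 5.95 and 5.42 in null arrays. Again the heterozygous arrays were highest and null replicate 1 came next, with a gap of 0.67 between it and the lower heterozygous array. The means were 5.84 ± 0.17 (SD, n = 2), 7.37 ± 0.39 (SD, n = 2) and 5.93 ± 0.50 (SD, n = 3). Heterozygous exceeded wild type by 1.53 ± 0.32 (SE), or 2.89-fold, with an interval of 0.76 to 2.29 and an adjusted p of 0.0334.

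Id2, the family member with a strong role in holding back oligodendrocyte differentiation, did not follow the others. It lay at 10.66 and 11.56 in wild type, 10.69 and 11.01 in heterozygous, and 11.75, 10.84 and 11.49 in null arrays. All 3 genotypes overlapped, and the 2 wild-type arrays were farther apart than the group means. Heterozygous differed from wild type by -0.26 ± 0.37 (SE), with an interval from -1.13 to 0.61 and an adjusted p of 0.687. The interval does not reach the rises measured for Id1, Id3 and Id4, but a difference in response between Id2 and the others was not tested.

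**Figure D1:**
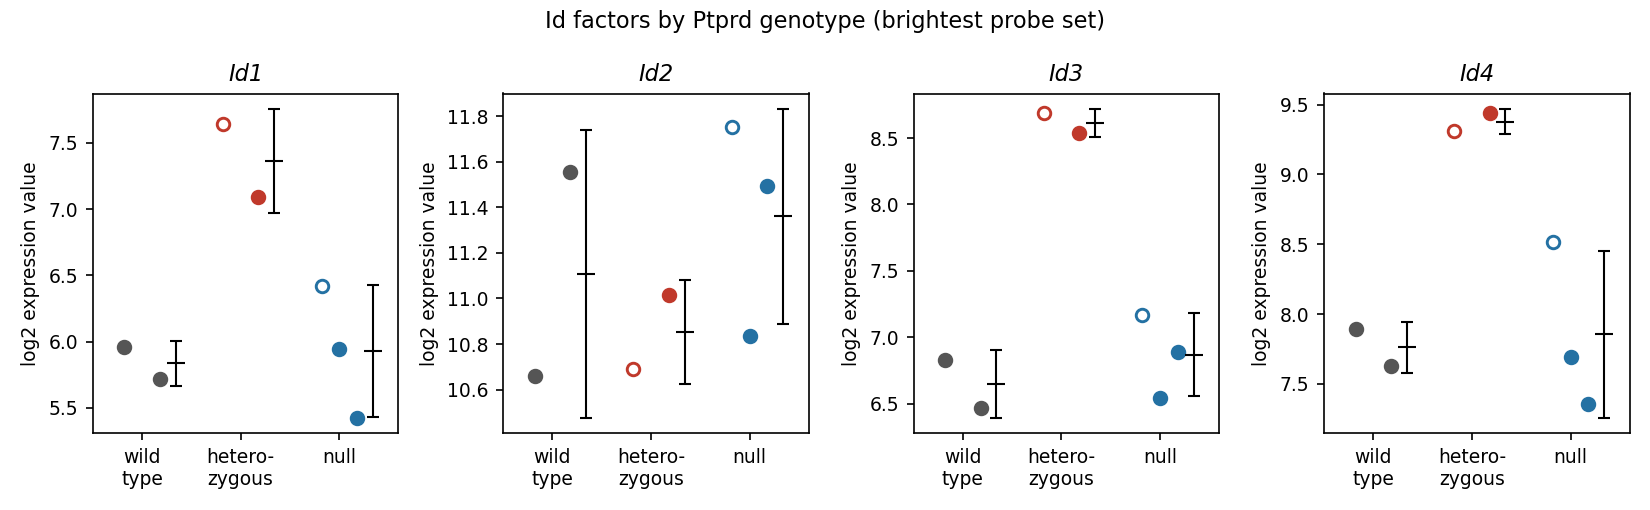
Log2 expression (y axis) of Id1, Id2, Id3 and Id4 by genotype (x axis), 1 point per array, with the mean as a black tick and the SD as a bar. Open points are the 2 arrays with both Xist and Y-linked transcripts. For Id1, Id3 and Id4 both heterozygous points sit above the other 5, and the open null point is the highest of these 5, whereas for Id2 the 3 genotypes overlap.

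Against wild type, 3 of the 8 tested genes were therefore higher in heterozygous arrays and 0 were lower, where 4.2% of all 9243 genes were called higher and 5.95% lower. The median difference of the 8 genes was -0.04, as over all genes (-0.04). Both heterozygous arrays lay above all 5 others for 3 of the 8 genes, and for 15.3% of all genes tested. The calls rested on few arrays. Id3 kept its call in 5 of 7 fits that each left out 1 array, and lost it when wild type replicate 2 was absent (log2 difference 1.78, adjusted p = 0.0699) or heterozygous replicate 1 was (1.89, adjusted p = 0.0555). Id4 kept it in 3 of 7, without any 1 of the null arrays, and leaving out wild type replicate 1 gave an adjusted p of 0.105, wild type replicate 2 gave 0.178, heterozygous replicate 1 gave 0.149 and heterozygous replicate 2 gave 0.0899. Id1 kept it in 2 of 7, without null replicate 1 or 3, and its adjusted p was 0.107, 0.181, 0.184 and 0.0508 without the same 4 arrays and 0.0512 without null replicate 2. In these fits the log2 difference ran from 1.78 to 2.15 for Id3, from 1.49 to 1.75 for Id4 and from 1.25 to 1.81 for Id1. Without both mixed arrays the differences were 1.89 for Id3, 1.68 for Id4 and 1.25 for Id1, with adjusted p = 0.113, 0.113 and 0.148.

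In null against wild-type arrays, 0 of the 8 genes were called, as were 0% of all 9243 genes by limma, of which 475 had an unadjusted p under 0.05. Of the 8 genes, 0 had an unadjusted p under 0.05. The log2 differences of the Id genes were 0.09 for Id1 (95% interval -0.60 to 0.79), 0.25 for Id2 (-0.54 to 1.04), 0.22 for Id3 (-0.25 to 0.69) and 0.09 for Id4 (-0.64 to 0.83). In the order of levels, heterozygous was highest for Id1, Id3 and Id4, and null and wild type, its neighbours, did not differ beyond their spread. The rises measured in heterozygous arrays lie above the upper bounds of these intervals for Id1, Id3 and Id4. Among the 8 genes, null replicate 1 was the highest of the 5 wild-type and null arrays for Id1, Id2, Id3, Id4 and Bmp4. Without it, Id1 differed from wild type by -0.15, Id4 by -0.24 and Bmp4 by -0.12, so the sign turned, and Id3 differed by 0.07. Over the 388 genes called higher in heterozygous than in wild type, null replicate 1 was the highest of these 5 arrays for 29.6%, against 18.7% of all genes tested.

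Null against heterozygous gave Id3 a difference of -1.75 ± 0.20 (SE; adjusted p = 0.00781), Id4 one of -1.52 ± 0.31 (adjusted p = 0.0339) and Id1 one of -1.43 ± 0.30 (adjusted p = 0.035). Thus 3 of the 8 genes were lower in null and 0 were higher, where 3.96% of all genes were called lower and 5% higher. This comparison shares its heterozygous arrays with the one against wild type, so the calls are not independent of those above, and 2.76% of all genes were called in both, higher in heterozygous than wild type and lower in null than heterozygous. Id2 differed by 0.51, with an interval of -0.28 to 1.30. Id3 lost its call without heterozygous replicate 1 (-1.67, adjusted p = 0.08) and kept it in the other 6 fits that left out 1 array. Id4 and Id1 kept theirs only without null replicate 1, where the differences were -1.85 and -1.68. Without the other arrays in turn, the adjusted p ran from 0.0597 to 0.186 for Id4 and from 0.0528 to 0.239 for Id1, in each case highest without heterozygous replicate 1. Without both mixed arrays the differences were -1.82 for Id3, -1.92 for Id4 and -1.40 for Id1, with adjusted p = 0.142, 0.141 and 0.18. The F test for any difference among the genotypes, which 5.65% of all genes passed, called Id3 (adjusted p = 0.0108) and Id4 (0.0499), and Id1 missed the threshold (0.0505). In that test 0 of the 8 genes passed without heterozygous replicate 1 or without heterozygous replicate 2, 1 passed without either wild-type array or without null replicate 2 or 3, and 3 passed without null replicate 1.

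**Figure D2:**
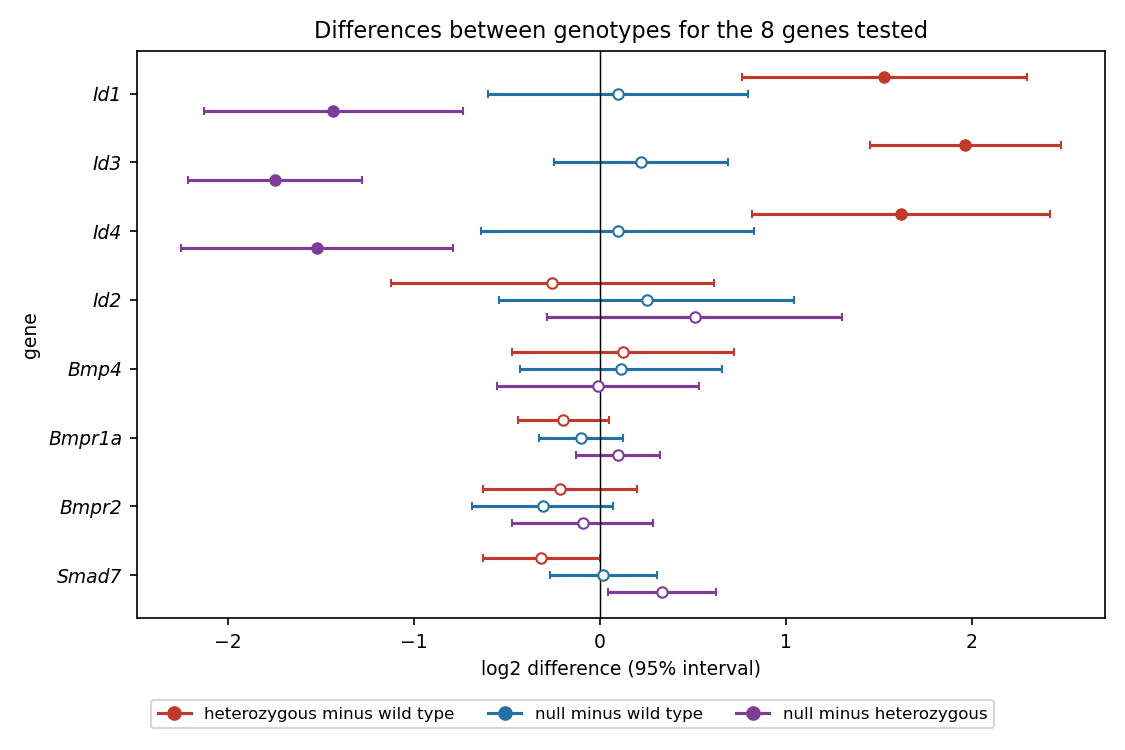
Log2 differences with 95% intervals (x axis) for the 8 genes tested (y axis), in 3 colours for the 3 pairs of genotypes; filled points have an adjusted p under 0.05. Id1, Id3 and Id4 are filled above 0 in heterozygous minus wild type and below 0 in null minus heterozygous, and every null minus wild type interval includes 0.

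The other probe sets of Id4 ran the same way. The second lay at 6.70 and 6.77 in wild type, 8.12 and 7.97 in heterozygous, and 7.79, 6.54 and 6.54 in null arrays. Here null replicate 1 came close to the lower heterozygous array. The third lay at 6.23 and 6.14, 7.43 and 7.16, and 6.72, 6.13 and 6.05. With every probe set fitted and p-values adjusted over all of them, heterozygous exceeded wild type by 1.62 in the brightest probe set (adjusted p = 0.047), by 1.31 in the second (0.109) and by 1.11 in the third (0.0438). So 2 of the 3 passed, and the heterozygous arrays were above all others in each. The 3 probe sets of Id2 differed by -0.26, 0.05 and 0.10, with 0 passing.

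**Figure D3:**
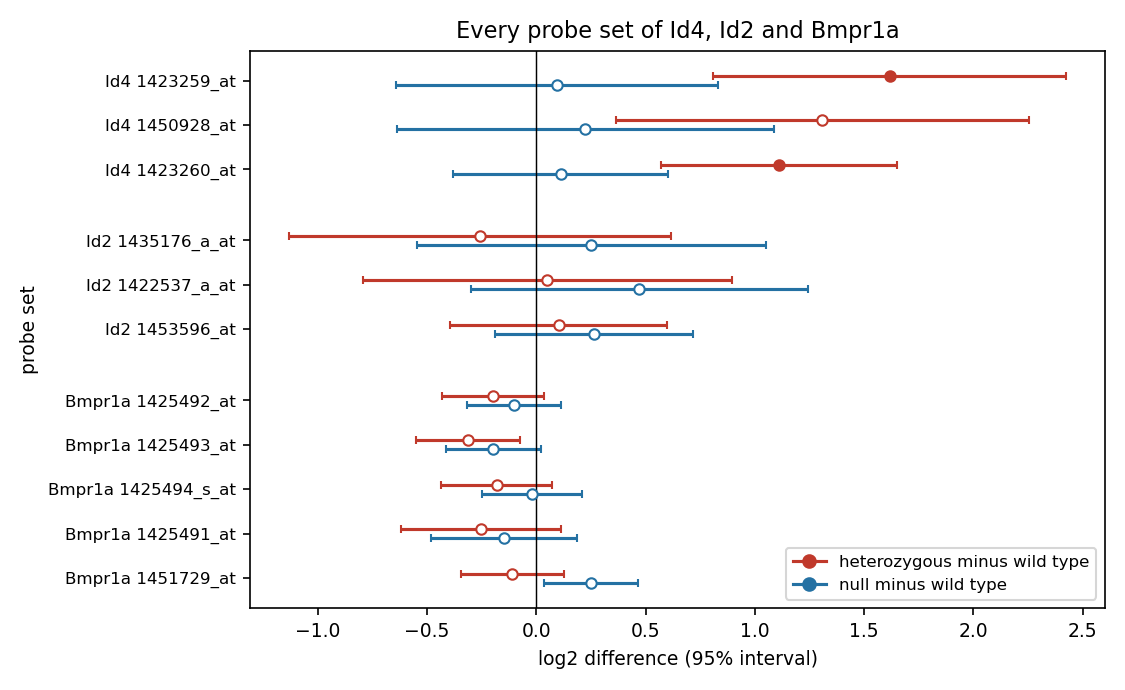
Log2 differences with 95% intervals (x axis) for every probe set (y axis) of Id4, Id2 and Bmpr1a, heterozygous and null each minus wild type; filled points have an adjusted p under 0.05 in the fit over all probe sets. All 3 probe sets of Id4 lie above 1 in heterozygous, those of Id2 lie on both sides of 0, and those of Bmpr1a lie below 0 in heterozygous without passing.

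Of the ligand and receptor genes, 0 of the 3 tested were called in any pair of genotypes. Bmp4, a ligand that turns neural progenitors towards astrocytes, lay at 8.67 and 8.56 in wild type, 8.80 and 8.67 in heterozygous, and 9.20, 8.35 and 8.64 in null arrays. The null arrays overlapped both other genotypes and held both the highest and the lowest value. Both heterozygous values lay above both wild-type ones, but the nearest were almost equal (8.6743 and 8.6705). Heterozygous differed from wild type by 0.12 (interval -0.47 to 0.72) and null by 0.11 (-0.43 to 0.65), and these intervals are what the arrays allow for a difference.

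Bmpr1a, the type I receptor with 5 probe sets, lay at 10.44 and 10.32 in wild type, 10.15 and 10.21 in heterozygous, and 10.29, 10.33 and 10.22 in null arrays. Both heterozygous arrays were below the others, by little. The difference from wild type was -0.20, with an interval of -0.44 to 0.05 and an adjusted p of 0.249. All 5 probe sets were lower in heterozygous than in wild type, by -0.11 to -0.31, and 0 of them passed. In null against wild type they differed in sign: 4 lay between -0.20 and -0.02, and 1 at 0.25 (interval 0.03 to 0.46, adjusted p = 0.783 by limma). Probe sets of 1 gene can measure different ends or splice forms of its transcripts, which the files do not resolve.

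Bmpr2, the type II receptor, lay at 7.14 and 7.18 in wild type, 6.99 and 6.89 in heterozygous, and 7.02, 6.53 and 7.001 in null arrays. The wild-type arrays were the highest, and null replicate 2 was the lowest. The difference from wild type was -0.22 (interval -0.63 to 0.20) in heterozygous and -0.31 (-0.69 to 0.07) in null arrays, with adjusted p = 0.453 and 0.882. Without null replicate 2 the null difference was -0.15. Bmpr1b, the other type I receptor, was dim on every array, at 3.21 and 3.17, 3.44 and 3.71, and 3.15, 3.18 and 3.48. Its values stand below the 30th percentile of their arrays, which lay between 4.82 and 4.95, so no direction was read from them.

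Of the inhibitory SMADs, Smad7 was not called and lay lower, not higher, in heterozygous arrays, and Smad6 could not be tested. Smad7, an inhibitor of both BMP and TGF-beta receptors, lay at 7.51 and 7.69 in wild type, 7.14 and 7.42 in heterozygous, and 7.54, 7.66 and 7.63 in null arrays. Both heterozygous arrays were below the other 5. The difference from wild type was -0.32 ± 0.13 (SE), with an adjusted p of 0.166, and null exceeded heterozygous by 0.33 ± 0.12 (interval 0.04 to 0.62; adjusted p = 0.128), so neither passed. Smad6, which acts mainly on BMP receptors, was dim on every array, at 3.13 and 3.03, 3.33 and 3.56, and 3.50, 3.22 and 3.33, so no direction was read from it either.

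**Figure D4:**
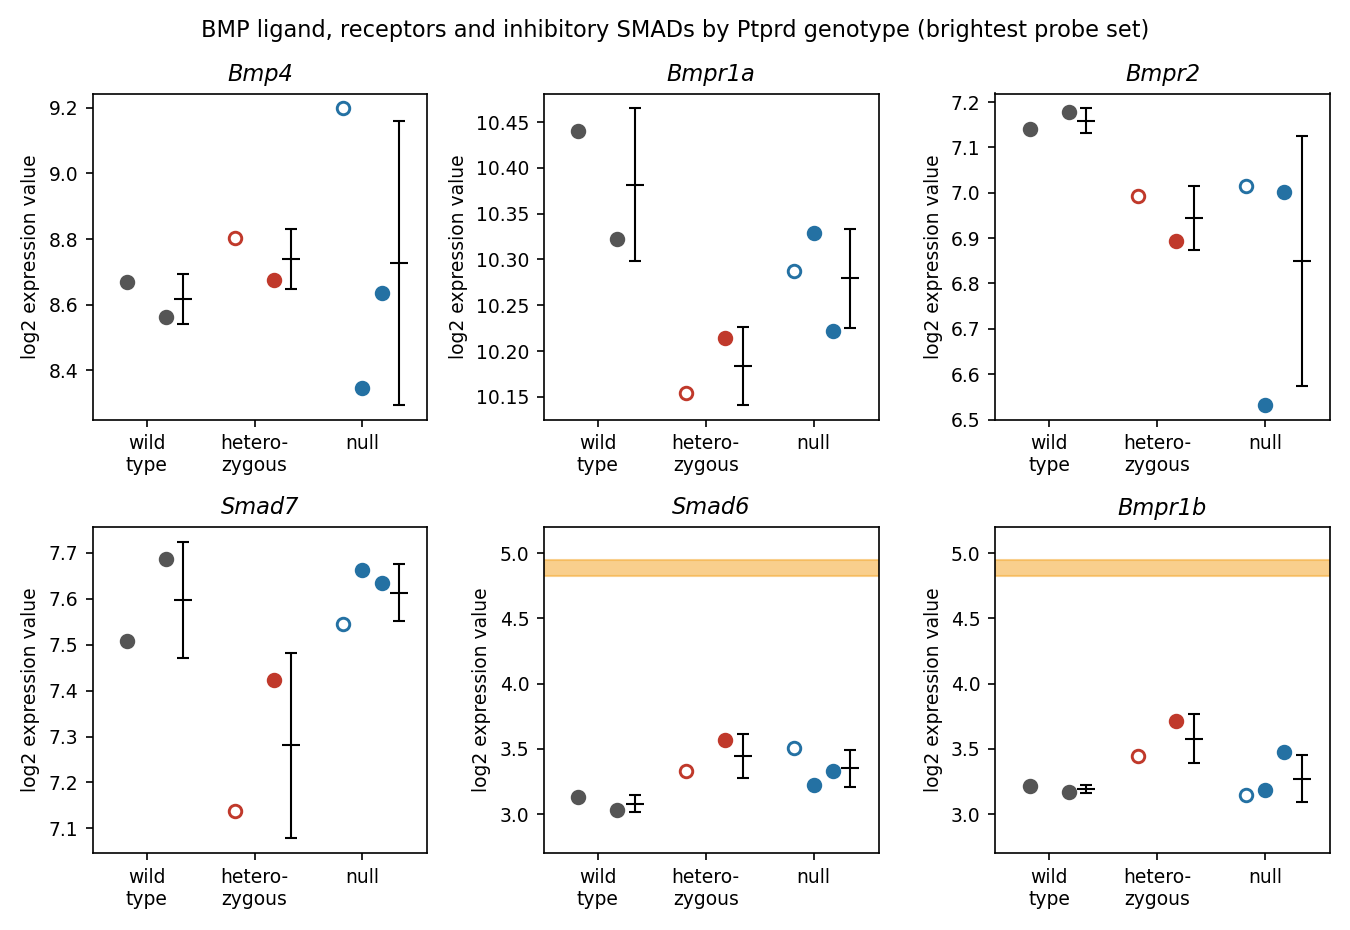
Log2 expression (y axis) of Bmp4, Bmpr1a, Bmpr2, Bmpr1b, Smad6 and Smad7 by genotype (x axis), 1 point per array, with the mean as a black tick and the SD as a bar; open points are the 2 arrays with both Xist and Y-linked transcripts, and the orange band is the range of the arrays' 30th percentiles, 4.82 to 4.95. Bmpr1b and Smad6 lie below the band on all 7 arrays, and for Smad7 and Bmpr1a the heterozygous points are the lowest.

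The rest of the BMP pathway was read from a list of 60 other genes, of which 49 were on the array and 32 were tested. In heterozygous against wild-type arrays 0 of the 32 rose and 4 fell, that is, 12.5% were called. Of all genes, 10.1% were called in either direction and 5.95% lower. The share called is near the first of these and above the second, and it rests on 4 genes. The median was -0.24 against -0.04 over all genes. In null against wild type 0 of the 32 were called. In null against heterozygous 6 of the 32 rose and 0 fell (18.8%, against 8.96% of all genes in either direction and 5% higher). The median there was 0.17 against 0.04 over all genes. The count against wild type ran from 0 to 5 when 1 array was left out, being 0 when wild type replicate 2 was left out, 1 for heterozygous replicate 1, and 2 for either wild type replicate 1 or heterozygous replicate 2. The count for null against heterozygous ran from 1 to 3: 1 without heterozygous replicate 1 or null replicate 3, 2 without either wild-type array or null replicate 1, and 3 without heterozygous replicate 2 or null replicate 2. Without both mixed arrays it was 0 in both comparisons. In another fit, with trend and robust moderation, 6 were called against wild type.

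Among other ligands, Bmp2, which uses the same receptors as Bmp4, lay at 6.36 and 6.80 in wild type, 5.65 and 5.66 in heterozygous, and 6.57, 6.18 and 6.82 in null arrays. The heterozygous arrays were the lowest and nearly equal. Bmp2 fell by 0.92 ± 0.23 (SE) in heterozygous against wild type (adjusted p = 0.0485), and null exceeded heterozygous by 0.87 (adjusted p = 0.047). Its call against wild type ended in 7 of 12 alternatives, no filter and cyclic loess among them, and in 5 of 7 fits without 1 array. It held only without null replicate 2 or 3, and the adjusted p was highest, at 0.245, without wild type replicate 2. Without both mixed arrays the difference was -0.92 (adjusted p = 0.269). The call for null against heterozygous held in 1 of the 7 fits, without null replicate 2. Bmp6, another ligand, lay at 4.47 and 4.33 in wild type, 5.57 and 5.30 in heterozygous, and 5.09, 4.36 and 5.13 in null arrays. It was highest in heterozygous arrays, but its difference of 1.04 from wild type did not pass (adjusted p = 0.0509). Both wild-type values and that of null replicate 2 lay below the 30th percentile of their arrays, so the size of this difference is uncertain.

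Of the 4 other receptors tested 0 passed. Acvr2b, a type II receptor shared with activins, had the smallest p, with a difference of -0.21 (adjusted p = 0.237). Of the 3 SMAD transducers tested 0 passed either. Smad5, which carries the BMP signal to the nucleus, differed by -0.39 (adjusted p = 0.105), and a second probe set by -0.09. Among 9 tested antagonists and modulators, which bind or process BMPs outside the cell or at its surface, 0 passed in the fit described. Bmp1, a protease that cleaves the BMP antagonist chordin and procollagens, had the smallest p there. It differed by 0.76 (adjusted p = 0.0559), and a second probe set by 0.89. In 3 alternatives, the filter at the 50th percentile, cyclic loess and trend with robust moderation, it passed as higher, with an adjusted p down to 0.0403.

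Of 5 nuclear cofactors of SMADs, 2 fell in heterozygous against wild type, where 5.95% of all genes were called lower. Tob2, an antiproliferative protein related to the SMAD-binding Tob1, lay at 9.79 and 9.90 in wild type, 8.76 and 8.49 in heterozygous, and 9.40, 9.41 and 9.40 in null arrays. The 3 genotypes did not overlap, with null arrays in between. Tob2 fell by 1.22 ± 0.12 (SE) in heterozygous against wild type (adjusted p = 0.00507). Its 3 other probe sets were lower by -0.34, -0.43 and -0.84, so the size depends on the probe set. Tob2 lost its call when wild type replicate 2 was left out (adjusted p = 0.062) and when both mixed arrays were (-1.36, adjusted p = 0.0788), and null exceeded heterozygous by 0.78 (adjusted p = 0.0144). Zfp423, a zinc-finger partner of SMADs at BMP targets, was at 6.63 and 6.66 in wild type, 5.94 and 5.84 in heterozygous, and 6.34, 6.29 and 6.63 in null arrays. It was lowest in heterozygous arrays, by -0.76 against wild type (adjusted p = 0.0227). That call held in 3 of 7 fits without 1 array, those without a null array, and the adjusted p reached 0.137 without wild type replicate 2 and 0.154 without both mixed arrays. Null exceeded heterozygous by 0.53 (adjusted p = 0.0477), a call that held in 0 of the 7 fits.

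The other target genes did not move with Id1, Id3 and Id4. Of 6 tested, 0 rose and 1 fell in heterozygous against wild type, where 4.2% of all genes were called higher and 5.95% lower. In null against heterozygous, where 5% of all genes were called higher, 3 rose. These were Jag1, Hes1 and Hey1, which are also genes of the Notch pathway. Jag1, a Notch ligand, lay at 7.17 and 7.73 in wild type, 5.87 and 5.67 in heterozygous, and 7.12, 6.87 and 7.17 in null arrays. The heterozygous arrays lay well below all others. Jag1 fell by 1.68 ± 0.20 (SE) in heterozygous against wild type (adjusted p = 0.00855), and a second, dim probe set differed by -0.46. The call held in 5 of 7 fits without 1 array but leaving out wild type replicate 2 gave an adjusted p of 0.0566, and leaving out heterozygous replicate 1 ended it too, as did leaving out both mixed arrays (-1.78, adjusted p = 0.113). Hes1 and Hey1, transcriptional repressors, were 1.17 (adjusted p = 0.0422) and 0.50 (adjusted p = 0.0448) higher in null than in heterozygous arrays, and their differences of -0.90 and -0.41 in heterozygous against wild type did not pass. Neither call held in any of the 7 fits without 1 array, and without both mixed arrays the adjusted p was 0.226 for Hes1 and 0.243 for Hey1.

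Id proteins act through E proteins and bHLH factors, and 8 of 11 listed genes of this kind were tested. The E protein genes Tcf3, Tcf4 and Tcf12 showed no call, with differences of 0.02, -0.11 and 0.17 in heterozygous against wild type. A second probe set of Tcf12 differed by 0.41. They are named here after their values were seen, as the partners of Id proteins. In that comparison 2 of the 8 fell and 0 rose, where 5.95% of all genes were called lower and 4.2% higher. The count was 0 without wild type replicate 1, wild type replicate 2 or heterozygous replicate 1, and without both mixed arrays. Olig2, the bHLH factor that defines oligodendrocyte progenitors, was at 11.47 and 11.67 in wild type, 10.78 and 11.02 in heterozygous, and 11.50, 11.43 and 11.49 in null arrays. It was lowest in both heterozygous arrays, by -0.67 against wild type (adjusted p = 0.0251), and null exceeded heterozygous by 0.57 (adjusted p = 0.033). Without both mixed arrays the difference from wild type was -0.55 (adjusted p = 0.173). Hes5, a Notch target repressor of neural progenitors, differed by -1.05 (adjusted p = 0.0265) and by -0.69 in a second probe set, and null exceeded heterozygous by 0.81 (adjusted p = 0.0434). Its difference from wild type without both mixed arrays was -1.13 (adjusted p = 0.16). The calls for null against heterozygous held in 1 of 7 fits without 1 array for Olig2 and in 2 of 7 for Hes5.

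**Figure D5:**
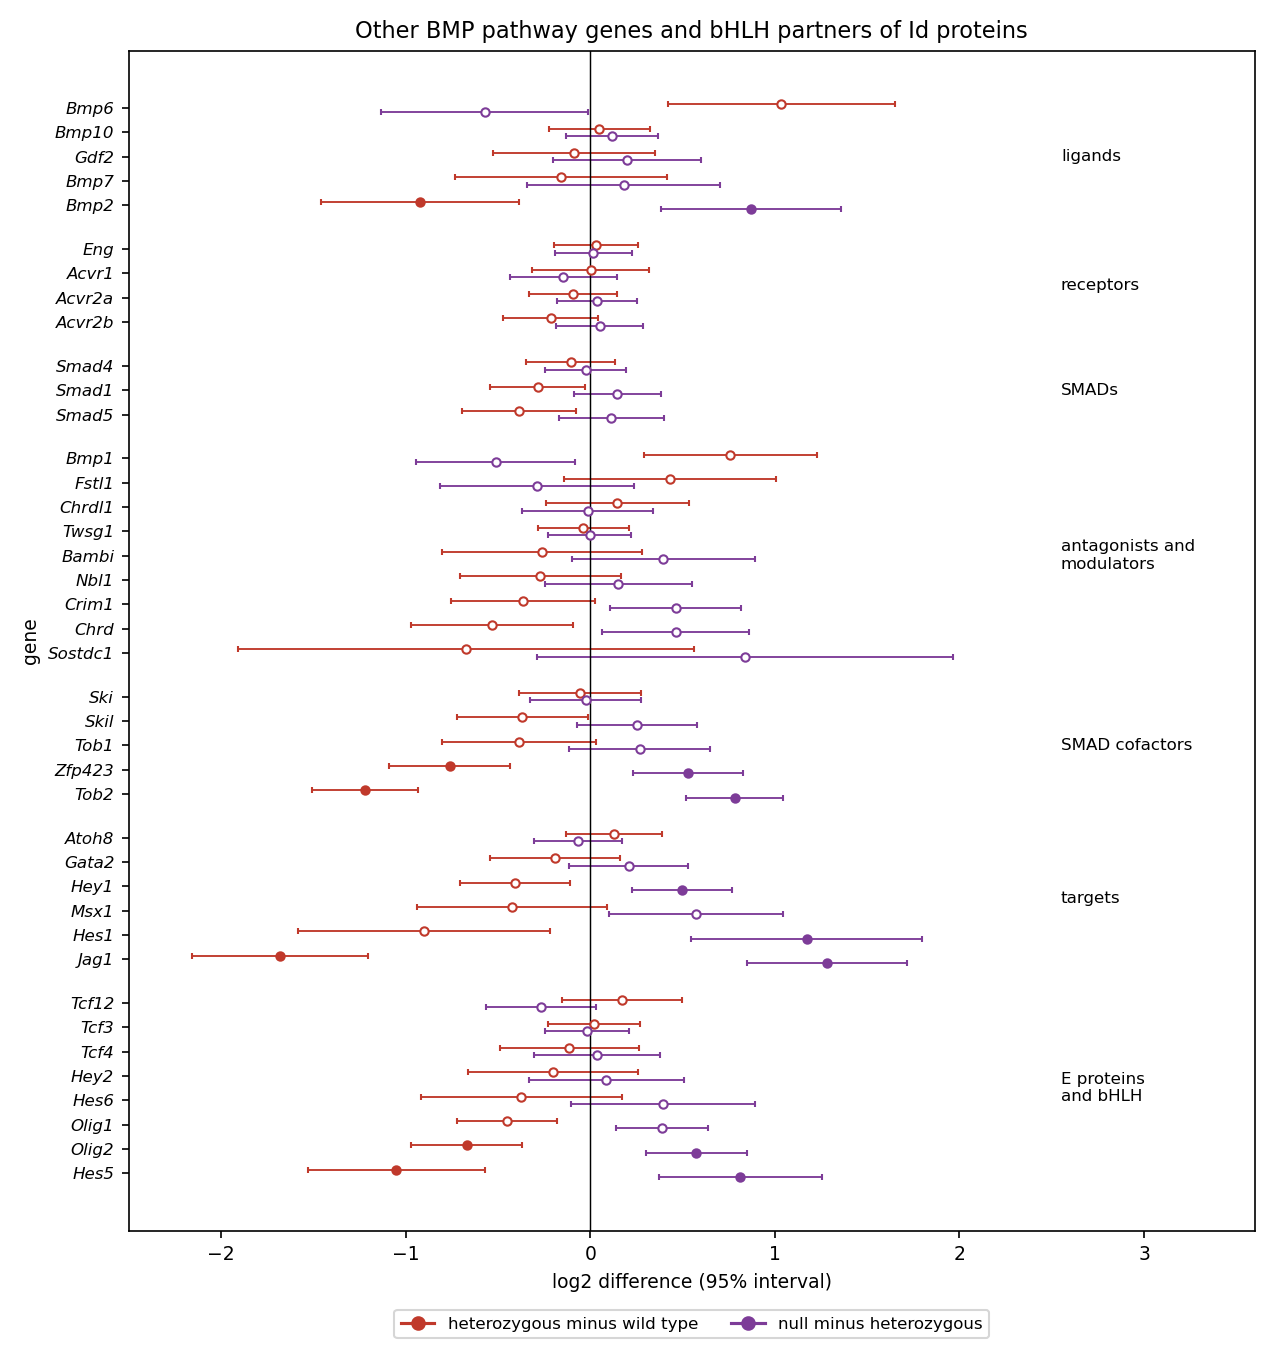
Log2 differences with 95% intervals (x axis) for 32 other BMP pathway genes and 8 bHLH genes (y axis), grouped by role, for heterozygous minus wild type and null minus heterozygous; filled points have an adjusted p under 0.05. The filled points of heterozygous minus wild type, among them Jag1, Tob2 and Hes5, all lie below 0, and those of null minus heterozygous all lie above 0.

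Some markers of other cells also differed in the heterozygous arrays, in which Id1, Id3 and Id4 were higher. Over all 9243 genes tested, 4.2% were called higher and 5.95% lower in heterozygous against wild-type arrays. Lists below with 1 call among few genes are not set apart from these shares. In that comparison, 15 of 18 tested microglia and macrophage markers rose and 0 fell. Among the 15, Ptprc, Cd68 and Cd14 exceeded the 30th percentile only on the 2 heterozygous arrays. They were thus tested only through the group where they are high, and their calls are not free of that choice. Aif1 and Itgam lay below the filter. The summed level of the 20 markers on the array, as log2, was 9.93 to 10.34 in wild type, 11.40 to 11.79 in heterozygous and 10.11 to 10.70 in null arrays. Among 10 astrocyte markers, Aldh1l1 exceeded the 30th percentile only on the 2 heterozygous arrays (5.71 and 6.40). It was thus tested only through the group where it is high. Of these 10 markers 3 rose (Gfap, Aldh1l1 and Sox9) and 1 fell (S100b), with a median difference of 0.70. Their summed level, which the brightest genes carry, was no higher in heterozygous arrays, at 13.06 to 13.29, 12.98 to 13.18 and 13.19 to 13.47, while the mean of their log2 levels, in which each gene counts alike, was 8.02 to 8.13, 8.56 to 8.78 and 7.94 to 8.32. Of 8 oligodendrocyte progenitor markers 4 fell, Olig2 among them, and the summed level was 15.60 to 15.62, 14.93 to 15.22 and 15.45 to 15.52. Of 12 endothelial markers, a cell type in which Id1 and Id3 are known to be high, 7 were tested and 1 rose, the glucose transporter Slc2a1. The summed endothelial level was 9.98 to 10.15, 10.67 to 10.79 and 10.03 to 10.33. Slc2a1, which neural cells also express, went from 8.501 and 8.57 in wild type to 9.97 and 10.07 in heterozygous arrays. The mean log2 level of the 12 overlapped between genotypes (5.21 to 5.41 in wild type, 5.41 to 5.45 in heterozygous, and up to 5.48 in null replicate 1), the median difference of the 7 tested was 0.00074, and Pecam1, Cdh5, Tek, Tie1 and Emcn lay below the filter. Of 6 pericyte markers 1 rose, Tagln, and of 3 ependymal markers 2 rose, Foxj1 and Rarres2. Of 5 fibroblast and meningeal markers 2 rose, Col1a2 (1.36) and Col3a1 (2.13), and 1 fell, Pdgfra (-0.65), which is also a progenitor marker. Of 6 neuronal markers 2 fell, Snap25 (-0.84) and Gad1 (-1.24), and of 6 markers of myelinating oligodendrocytes 0 were called. The part of these cells in the Id levels was not tested, and in RNA of many cells fewer cells of a type and less RNA per cell cannot be told apart.

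By Pearson correlation of log2 values over the 7 arrays, the genes most like Id3 were Atpif1 (r = 0.992), Ahnak (0.987), Hspb8 (0.985), S100a6 (0.982) and Cilk1 (0.982). The genes most like Id1 were Tspo (0.980), Hprt (0.980), Tgif2 (0.978), Fhl1 (0.977) and Nfkbiz (0.969). The 2 lists had no gene in common. All points share the split between the heterozygous arrays and the rest, so these values mainly restate it. Of the genes like Id3, 4 of 5 were called higher in heterozygous than wild type, all but Cilk1, and of those like Id1, 1 of 5, Tspo.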

How the data were processed

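Values from 7 arrays of sorted mouse glioma cells were used, 2 wild type, 2 heterozygous and 3 null for Ptprd. The deposited values are log2 expression levels; per the submitters' processing notes the tools were RMA, which sets arrays to a common distribution, and Partek 6.6. Per the labels' protocols, 75 ng of RNA was labelled with a 3' IVT kit, which reads mainly the end of a transcript. A shift of all genes at once could not be seen in such values, and the small number of arrays limits the precision.

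Gene names came from the annotation of the array platform: of 22626 other than controls, 20380 named 1 gene, 691 several and 1555 none here. The brightest probe set stood for a gene. Genes whose probe set exceeded the array's 30th percentile on 2 or more arrays were tested, 9243 of 12393. With limma 3.58.1 (R 4.3.3), a model of 1 mean per genotype used all 7 arrays (4 residual degrees of freedom), with two-sided moderated tests, Benjamini-Hochberg adjustment and a threshold of 0.05. The fit was tested on simulated data. Promoters and loci are from RefSeq (GRCm38.p6).

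The 10 genes, the pathway and marker lists and the tests were chosen with earlier results of these data known. Named by rule are all 10 genes, genes of the pathway and bHLH lists past the threshold, the gene of smallest p in each of these lists, the 5 genes most correlated with Id1 and with Id3, and Ptprd, Xist and a Y-linked gene. Bmp6, the E proteins and the marker genes were named after their values were seen. Alternatives changed the filter, probe set choice, scaling, variance moderation, a covariate of 3' minus 5' control signal, a replicate block and the arrays kept.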

Additional observations from a re-analysis of the deposited data

How the results depend on the processing

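The rises of Id1, Id3 and Id4 in heterozygous arrays kept their direction in all 19 alternatives, with log2 differences of 1.25 to 1.57 for Id1, 1.79 to 2.04 for Id3 and 1.35 to 1.70 for Id4 over the 12 that did not leave out 1 array each. Their calls did not. With only the 2 genotypes compared in the fit, Id1 lost its call against wild type (adjusted p = 0.0555 by limma), and Id3 and Id4 kept theirs. With every probe set fitted, Id1 lost its call for null against heterozygous (adjusted p = 0.0512 by limma), and Id3 and Id4 kept theirs. Against wild type the 3 calls became 0 with no moderation of the variance (97 genes of all were called then, and 4 of the 8 genes had an unadjusted p under 0.05), 1 with the 3' minus 5' covariate and 0 without both mixed arrays, and ran from 0 to 3 when each array was left out. For null against heterozygous they became 0 with no moderation, 1 with only those genotypes fitted and 0 without both mixed arrays, and ran from 0 to 3. In the F test 2 calls became 1 with no filter, with median-centred arrays, with cyclic loess, with the covariate and with every probe set fitted, and 0 with no moderation and without both mixed arrays, and ran from 0 to 3. The other pathway genes called against wild type went from 4 to 1 with no moderation or with only those genotypes fitted and to 0 without both mixed arrays, rose to 5 with cyclic loess and 6 with trend and robust moderation, and ran from 0 to 5. For null against heterozygous they went from 6 to 2 with no filter, 0 with no moderation, 3 with the covariate, 0 without both mixed arrays, 2 with only those genotypes fitted and 2 with every probe set, and ran from 1 to 3. Fewer arrays or fewer degrees of freedom enter several of these fits; beyond that the cause was not tested. Deviations from the genotype mean correlated at r from -0.41 to 0.11 between arrays with the same replicate number. In a genotype with 2 arrays these deviations mirror each other, so the check holds little and cannot exclude pairing. The numbers were not taken as pairs in the main fit. With the replicate block, the calls were 2 against wild type (Id1 and Id3), 1 for null against heterozygous (Id3), 1 in the F test, 2 and 0 for the pathway genes, and 0 for the bHLH genes in both comparisons. The bHLH count against wild type, 2, was also 0 with no moderation, with only those genotypes fitted and without both mixed arrays, 1 with the covariate, and 3 with the 50th percentile filter, the mean of probe sets, cyclic loess, or trend and robust moderation. It ran from 0 to 2 when each array was left out.

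Differences that changed sign were all uncalled. In heterozygous against wild type Bmp4 was -0.13 with the covariate, and Id2 ran from -0.70 to 0.19 when each array was left out, turning without wild type replicate 2. In null against wild type, with the covariate, Id4 was -0.054, Bmp4 -0.034 and Smad7 -0.00037. Without both mixed arrays Id1 was -0.15, Id4 -0.24 and Bmp4 -0.12, the values also given by leaving out null replicate 1 alone. When each array was left out, that comparison ran from -0.15 to 0.35 for Id1, from -0.20 to 0.70 for Id2, from -0.24 to 0.34 for Id4, from -0.12 to 0.30 for Bmp4 and from -0.073 to 0.11 for Smad7. Besides null replicate 1, wild type replicate 1 (Id2 and Smad7), wild type replicate 2 (Id1 and Id4) and null replicate 2 (Smad7) turned a sign. In null against heterozygous Bmp4 was 0.025 with median-centred arrays, 0.034 with the replicate block and 0.10 with the covariate. It ran from -0.25 to 0.18 when each array was left out, turning without heterozygous replicate 1, null replicate 2 or null replicate 3, and Bmpr2 ran from -0.18 to 0.064, turning without null replicate 2. Scaling moved the median of all genes by less than 0.1.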
